A study of Mus musculus with 9 samples.

Results

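Of 45037 probe sets on an Affymetrix mouse expression array, not counting controls, 3 carry the symbol Gtsf1 or Gtsf1l in the platform annotation: 1441836_x_at and 1452967_at for Gtsf1, and 1418994_at for Gtsf1l. Gtsf1 was chosen by its values in these same arrays, as the gene with the deepest fall in ventricle without Esrrg, and Gtsf1l was added by its name. They are 2 of 18193 genes on the array. The samples are cardiac ventricles of male mouse fetuses at E18.5, late in gestation, with an intact Esrrg gene (ERRg +/+, here WT), 1 disrupted copy (+/-, HET) or both copies disrupted (-/-, KO), with 3 arrays of each. Esrrg encodes estrogen-related receptor gamma, an orphan nuclear receptor that is abundant in heart muscle. The source label of every sample names 3 ventricles, so an array may hold pooled fetuses, and the p-values measure the spread between arrays. Neither the strain nor the way the allele was made is stated in the labels.

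Gtsf1 encodes gametocyte-specific factor 1, a small protein with a pair of CHHC zinc fingers. In mouse testis it is needed for spermatogenesis and for silencing of retrotransposons by PIWI proteins, which are guided by small piRNAs, and it speeds target cleavage by PIWI proteins. Gtsf1l encodes a related protein known from the male germ line. The question is how Gtsf1 was distributed over the 3 genotypes and whether its probe sets agree.

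The windows around the annotated starts of both genes are shown because ERR proteins are known to bind DNA at short motifs, which can be searched there. They are RefSeq sequences of GRCm38.p6, 250 bases before to 50 after the start, on the minus strand of chr15:103430378-103430677 for Gtsf1 and of chr2:163089552-163089851 for Gtsf1l. Capitals mark CG dinucleotides.
Gtsf1: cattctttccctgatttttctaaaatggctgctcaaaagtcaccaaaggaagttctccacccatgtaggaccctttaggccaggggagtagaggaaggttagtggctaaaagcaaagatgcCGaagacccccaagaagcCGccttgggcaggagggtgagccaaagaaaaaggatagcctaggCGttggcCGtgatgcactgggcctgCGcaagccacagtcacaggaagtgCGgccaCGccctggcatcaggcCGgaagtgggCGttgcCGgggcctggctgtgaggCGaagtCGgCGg
Gtsf1l: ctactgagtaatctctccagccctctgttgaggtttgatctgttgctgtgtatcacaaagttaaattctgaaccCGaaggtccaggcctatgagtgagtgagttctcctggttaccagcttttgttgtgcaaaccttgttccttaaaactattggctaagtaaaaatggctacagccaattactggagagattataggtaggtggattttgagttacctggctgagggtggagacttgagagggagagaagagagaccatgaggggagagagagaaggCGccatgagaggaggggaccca
The Gtsf1 window held 13 CG dinucleotides and was 57.7% G and C, and 62.1% of 32851 annotated windows of this length held fewer CG. The Gtsf1l window held 2, with 14.1% of windows holding fewer, against a median of 7. The ERR element TCAAGGTCA, its core AAGGTCA and the shorter nuclear receptor motif AGGTCA, which lies inside the other motifs, were searched on both strands. None occurred in either window, and they occur in 0.423%, 4.72% and 16.3% of all windows. This says only that these letters are not in these 300 bases.

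The signal of the brighter Gtsf1 probe set, 1441836_x_at, was lower with each disrupted Esrrg copy. WT replicates 1 to 3 gave 333, 268 and 223, HET replicates 200, 128 and 172, and KO replicates 46.8, 81.3 and 58.8 (MAS5 signal, a linear intensity). Every WT array was above every HET array, and every HET array above every KO array. The genotype means were 274 ± 55.5 for WT, 167 ± 36.5 for HET and 62.3 ± 17.5 for KO (SD, n = 3 each), so HET stood at 60.7% and KO at 22.7% of WT. KO lay below WT without overlap in 9.31% of all probe sets, and the full order of WT above HET above KO without overlap occurred in 0.206%. Since Gtsf1 was chosen by its KO and WT values, nothing is read from these shares.

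**Figure D1:**
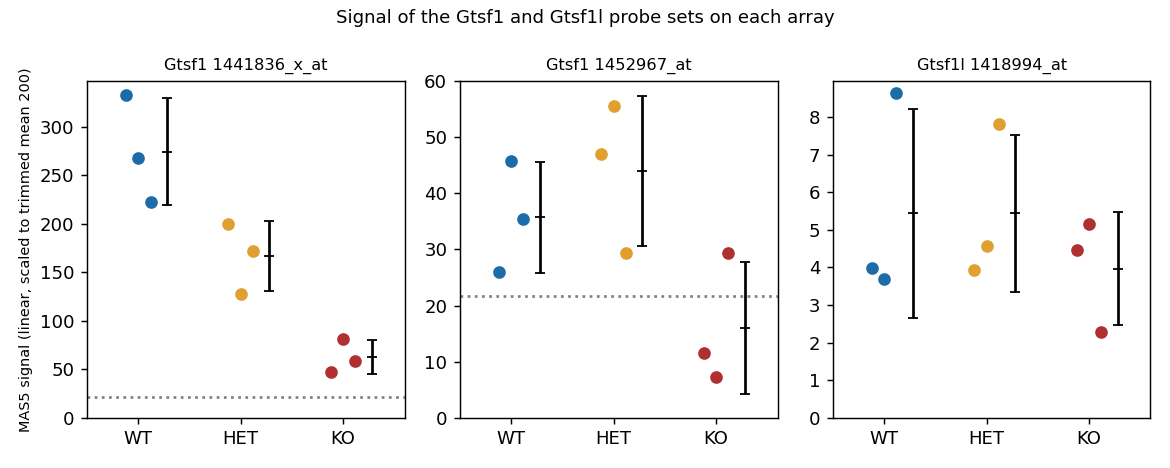
Signal (linear MAS5 units, each panel with its own scale from 0) of the 3 probe sets in WT, HET and KO. Points are arrays in the order of replicates 1 to 3, black bars the mean and SD of 3 arrays, and the dotted line a signal of 21.7, the level of the 40th percentile of probe sets. The brighter Gtsf1 probe set parts all 3 genotypes, the dimmer one has 2 low KO arrays, and all Gtsf1l points lie under 9.

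The dimmer Gtsf1 probe set, 1452967_at, shared the low KO mean but not the step from WT to HET. WT replicates gave 26.0, 45.7 and 35.4, HET replicates 47.0, 55.6 and 29.3, and KO replicates 11.5, 7.18 and 29.3. KO replicates 1 and 2 were the lowest of all 9 arrays, while KO replicate 3 stood above WT replicate 1 and level with HET replicate 3. The genotype means were 35.7 ± 9.86 for WT, 43.9 ± 13.4 for HET and 16 ± 11.7 for KO (SD, n = 3 each), which puts KO at 44.8% and HET at 123% of WT. This probe set sat close above a signal of 21.7, the 40th percentile, at which MAS5 values are noisy. Of the 3 probe sets, those of Gtsf1 had a mean over that level and that of Gtsf1l did not.

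On the log2(signal + 16) scale, which understates changes of dim probe sets, KO minus WT was -1.90 ± 0.22 in the brighter and -0.74 ± 0.39 in the dimmer probe set (limma standard errors). HET minus WT was -0.67 ± 0.22 and 0.21 ± 0.39, and KO minus HET was -1.23 ± 0.22 and -0.94 ± 0.39. HET minus WT of the dimmer probe set was 0.06 without WT replicate 1 or HET replicate 2, 0.34 without WT replicate 2 and 0.40 without HET replicate 3, and that of the brighter was -0.41 ± 0.30 with a block for the array partition given by spike-in controls. These differences carry the choice of the gene and are given with no test. Of 9 pairs of a KO and a WT array, KO was lower in 9 in the brighter probe set and in 8 in the dimmer. Within a genotype, both probe sets put a pair of arrays in the same order in 3 of 9 pairs. These pairs share arrays and are few, so nothing is read from that count. The means of both probe sets were thus lower in KO, while the HET mean lay below WT in the brighter and above WT in the dimmer probe set, with the interval of the dimmer reaching past 0 on either side for HET minus WT (-0.62 to 1.03). The suffix _x_at, carried by 5.42% of probe sets, marks in the array maker's naming a probe set with probes that also match other transcripts, and whether such transcripts add to the signal of 1441836_x_at was not tested. The brighter minus the dimmer probe set gave -1.16 for KO minus WT (standard error 0.47, linear fit) and -0.88 for HET minus WT. These too are given with no test. With a pseudocount of 64, KO minus WT was -1.42 in the brighter and -0.32 in the dimmer probe set. With 1 it was -2.14 and -1.30.

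**Figure D2:**
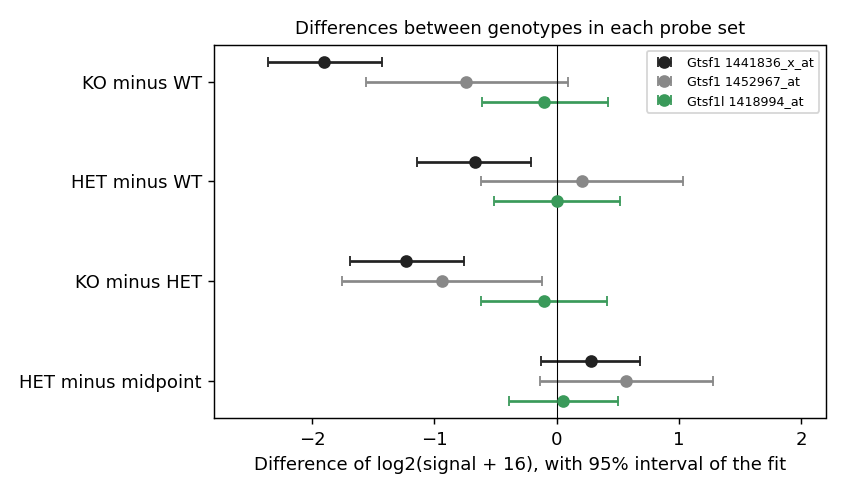
Differences between genotypes in log2(signal + 16) for the 3 probe sets, with the 95% interval of the limma fit. The brighter Gtsf1 probe set lies at -1.90 for KO minus WT and the dimmer one at -0.74, and the probe sets lie on opposite sides of 0 for HET minus WT.

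The other genes with more than 1 probe set give a measure of how often such agreement occurs. Leaving out Gtsf1, in 23 genes the brightest probe set was called lower in KO (limma, adjusted p under 0.05), and in 18 of them, 78.3%, the second brightest was also lower. Their median KO minus WT difference was -0.62 in the brightest and -0.26 in the second probe set, and 0 of the second probe sets were called. Over all 9009 such genes with 2 or more probe sets, the brightest and the second had the same sign in 53.5%. The background was 134 probe sets called between KO and WT, 0.298% of all (5220 had an unadjusted p under 0.05). That number was 27, 25 and 12 without WT replicates 1, 2 and 3, 12, 17 and 22 without KO replicates 1, 2 and 3, and 1313 and 203 without HET replicates 1 and 2.

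Whether HET lay midway was tested, because HET minus the mean of WT and KO is a contrast at right angles to the one that chose the gene. The HET mean signal of the brighter probe set, 167, was close to the linear midpoint of 168. On the log2 scale HET was 0.28 ± 0.19 above the midpoint (95% interval -0.13 to 0.68), which did not pass (limma, adjusted p = 0.987, and 0.882 to 1 over the alternatives). It was 0.14 without HET replicate 1, 0.44 without HET replicate 2 and 0.16 with a pseudocount of 64. The dimmer probe set gave 0.57 ± 0.34 (limma, adjusted p = 0.987). For this contrast 0% of all probe sets were called, and 1980 had an unadjusted p under 0.05. It was 0 under the alternatives too, except for 50 without HET replicate 1 and 1 without HET replicate 3.

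Gtsf1l lay near the bottom of the array's range. Its WT replicates gave 3.98, 3.69 and 8.64, HET replicates 3.93, 4.56 and 7.82, and KO replicates 4.47, 5.15 and 2.28, and only 3.23% of probe sets had as low a mean. The genotypes overlapped on every side. KO minus WT was -0.10 ± 0.24 (95% interval -0.61 to 0.42, limma, adjusted p = 0.934), HET minus WT was 0.0033 ± 0.24 (adjusted p = 0.999) and KO minus HET was -0.10 ± 0.24 (adjusted p = 0.999). With WT signals this far under the pseudocount of 16, a fall in Gtsf1l was not detectable on this scale.

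Esrrg itself, the targeted gene, lies on chromosome 1, while Gtsf1 lies on chromosome 15. Its brightest probe set stood at 69.7% of WT in HET and at 22.2% in KO, next to 60.7% and 22.7% for Gtsf1, and its KO replicates gave 58.3, 58.1 and 39.3. The other 2 Esrrg probe sets were dimmer, over the 40th percentile, and stood at 78.4% and 83.5% of WT in KO and at 153% and 60.9% in HET, with KO minus WT at -0.14 ± 0.43 and -0.13 ± 0.38. The probe sets of Esrrg thus differ among themselves too. Among probe sets that name 1 gene and lie over the 40th percentile, 23540 in number, the brighter Gtsf1 probe set ranked 1 by depth of fall and the dimmer 333. The rank of 1 only restates how Gtsf1 was chosen. The dimmer probe set had a KO mean of 16, itself under the 40th percentile signal of 21.7. The next genes in that order were Esrrg (-1.88 ± 0.20), Ush1c (-1.59 ± 0.48) and Syn3 (-1.59 ± 0.40). Gtsf1 itself, at -1.90 ± 0.22, lay within the standard error of Esrrg. As a percent of WT, the KO means of Esrrg (22.2%), Ush1c (13.1%) and Syn3 (16.1%) were lower than that of Gtsf1 (22.7%). Ush1c and Syn3 had KO means of 7.09 and 9.80. The order, with its first place, is thus uncertain. With a pseudocount of 1 the brighter Gtsf1 probe set ranked 25.

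**Figure D3:**
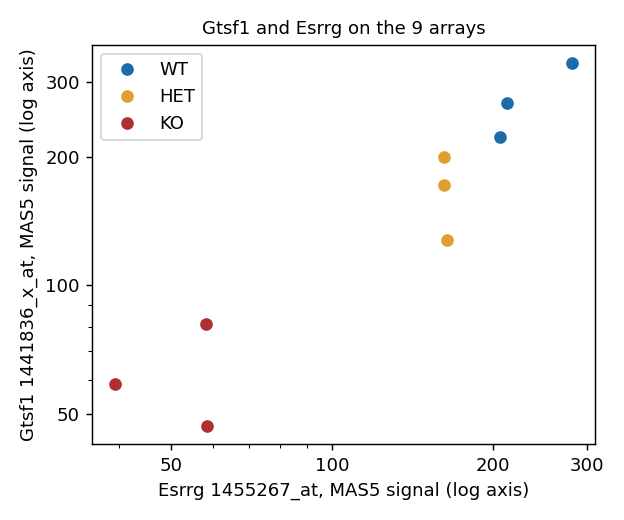
Signal of the brighter Gtsf1 probe set against that of the brightest Esrrg probe set, both on log axes, 1 point per array. The genotypes form 3 separate groups in both, and within KO the array with the lowest Esrrg (39.3) is not the one with the lowest Gtsf1 (46.8).

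Control probe sets also differed along the genotypes. In the spike-in control probe sets, the log2 ratio of thr to dap was -0.67 to -0.43 on the 3 WT arrays and HET replicate 1, and -1.09 to -0.89 on HET replicates 2 and 3 and the 3 KO arrays. The arrays were parted by this ratio itself, at its widest gap, from -0.89 to -0.67. That gap is about as wide as the span of the first set, -0.67 to -0.43, so the break is not sharp. With this partition as a block, which then rests on the single HET array of the first set, KO minus WT was -1.50 ± 0.38 in the brighter and -0.59 ± 0.72 in the dimmer probe set, against -1.89 ± 0.36 for Esrrg. The brighter probe set then ranked 222 by depth of fall. Among arrays that share a side, KO minus HET was -1.09 in the brighter and -0.89 in the dimmer probe set (3 KO against 2 HET arrays), and HET replicate 1 minus WT was -0.41 and 0.30. HET replicates 2 and 3 minus HET replicate 1 gave -0.39 in the brighter Gtsf1 probe set and 0.0086 in Esrrg. As all WT arrays lie on one side and all KO arrays on the other, the partition and the genotype cannot be told apart except through the HET arrays.

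The genes whose pattern over the 9 arrays was most like the brighter Gtsf1 probe set are given as a description, since 3 genotype levels are shared by all of them. By Pearson correlation of log2(signal + 16), they were Pisd, which makes phosphatidylethanolamine in mitochondria (r = 0.96), the netrin gene Ntn1 (0.96), the pyruvate dehydrogenase component gene Pdhx (0.96), the TGF-beta signalling gene Smad2 (0.95) and Esrrg (0.95). Pisd signals averaged 1150 ± 98.3 for WT, 995 ± 78.1 for HET and 808 ± 64.2 for KO (SD, n = 3). Its probe set also has the suffix _x_at. Ntn1 signals averaged 1810 ± 90.8, 1470 ± 73.2 and 897 ± 105 in the same order, with no overlap between genotypes. The most opposed patterns were those of the thrombospondin gene Thbs4 (r = -0.96), the ubiquitin-conjugating enzyme gene Ube2j1 (-0.94) and Prxl2a (-0.94), with Thbs4 averaging 332 ± 55.8, 442 ± 33.4 and 744 ± 46.9. The dimmer Gtsf1 probe set had r = 0.56 with the brighter one, and a rank correlation (Spearman) of 0.32.

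No chromosomal neighbour of Gtsf1 was called between KO and WT. The 5 genes on either side that have a probe set were Nfe2, Copz1, Gpr84, Zfp385a, Itga5, Nckap1l, Pde1b, Ppp1r1a, Glycam1 and Mucl1, in order. Of the 10, limma called 0, and 2 had an unadjusted p under 0.05. Of all 18193 genes, 0.39% were called in their brightest probe set and 13.7% had an unadjusted p under 0.05. Those with an unadjusted p under 0.05 were Zfp385a and Itga5. Zfp385a, a zinc finger gene, read 118 ± 11.7 in WT and 79.7 ± 9.46 in KO (-0.49 ± 0.22, adjusted p = 0.388), and Itga5, an integrin gene, 667 ± 23.0 and 559 ± 56.4 (-0.25 ± 0.12, adjusted p = 0.417). With the array partition as a block Zfp385a and Itga5 gave -0.47 ± 0.39 and -0.21 ± 0.20. On the same side of Gtsf1 as these, Nfe2 gave -0.70 ± 0.37, Copz1 -0.13 ± 0.14 and Gpr84 0.42 ± 0.37. On the other side Nckap1l gave -0.30 ± 0.28, Pde1b -0.06 ± 0.31, Ppp1r1a 0.16 ± 0.11, Glycam1 -0.49 ± 0.40 and Mucl1 0.24 ± 0.35. The median over the 10 was -0.19, against -0.02 over all genes. A mean over the 40th percentile was found for 7 of the 10, and for 13028 of all 18193 genes. Gtsf2, a close relative of Gtsf1 that the annotation also places on chromosome 15, was matched by no probe set and not analysed here.

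**Figure D4:**
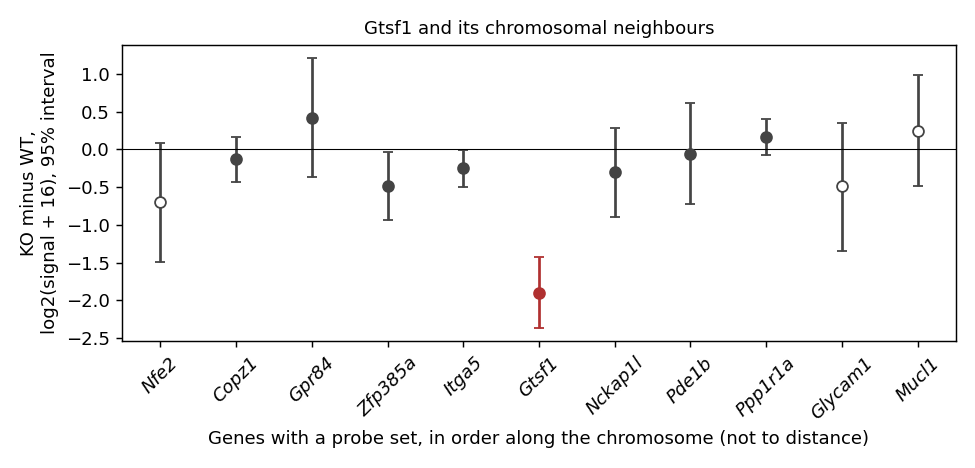
KO minus WT difference in log2(signal + 16) with its 95% interval for Gtsf1 (red, brighter probe set) and the 5 measured genes on each side, in chromosomal order and not to distance. Open circles mark genes whose mean lies under the 40th percentile. Gtsf1 stands at -1.90, and the others lie between -0.70 and 0.42.

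The other CHHC zinc finger genes were Snrnp48, a protein of the minor spliceosome, and Trmt13, a tRNA methyltransferase. Snrnp48 had 4 probe sets, with 227 ± 30.2 in WT and 192 ± 42.7 in KO in the brightest (-0.23 ± 0.18, limma, adjusted p = 0.681) and KO minus WT differences from -0.26 to 0.27 over all of them. Trmt13 had 5, with 90.8 ± 26.1 and 122 ± 15.8 in the brightest (0.39 ± 0.27, limma, adjusted p = 0.634) and differences from -0.56 to 0.39. Both genes thus had probe sets on either side of 0, and no brightest probe set was called.

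Most measured genes of the piRNA pathway had a mean under the 40th percentile in the ventricle. Of 30 listed genes 27 had a probe set and 12 of these a mean over that level, where 13028 of all 18193 genes did. The PIWI genes Piwil1, Piwil2 and Piwil4, the helicase gene Ddx4, Mael and the Tudor genes Tdrd1, Tdrd5, Tdrd9 and Tdrd12 all lay under it. None of the 27 was called between KO and WT (limma), where 0.39% of genes were, and the median was -0.08 against -0.02 over all genes. An unadjusted p under 0.05 was found for 2 of the 27, and for 13.7% of all genes. Those 2 were Mov10l1 and Wdr77. Mov10l1, an RNA helicase gene with a known cardiac form, gave 1200, 1510 and 1440 for WT, 1230, 1000 and 1090 for HET and 1050, 1070 and 1120 for KO (KO minus WT -0.35 ± 0.10, limma, adjusted p = 0.141). Wdr77, which with Prmt5 forms an arginine methyltransferase complex, gave 1120, 1090 and 721 for WT, 978, 1480 and 1430 for HET and 1380, 1410 and 1290 for KO (0.49 ± 0.16, limma, adjusted p = 0.185). KO and WT did not overlap in Mov10l1, which was lower in KO, nor in Wdr77 and the dim Tudor gene Tdrd1, which were higher. That is 1 and 2 of 27 genes, where 12% of all genes lay lower and 9.07% higher without overlap. With the array partition as a block Mov10l1 and Wdr77 gave -0.11 ± 0.16 and -0.08 ± 0.22. Both were called without HET replicate 1 (limma, adjusted p = 0.041 and 0.0391). In that setting 1313 of 45037 probe sets were called, against 134 with all arrays. Next by p were Tdrd7, a Tudor gene also active in the lens (-0.23 ± 0.12, limma, adjusted p = 0.528), and the transcription factor gene Mybl1 (0.62 ± 0.46, limma, adjusted p = 0.679).

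**Figure D5:**
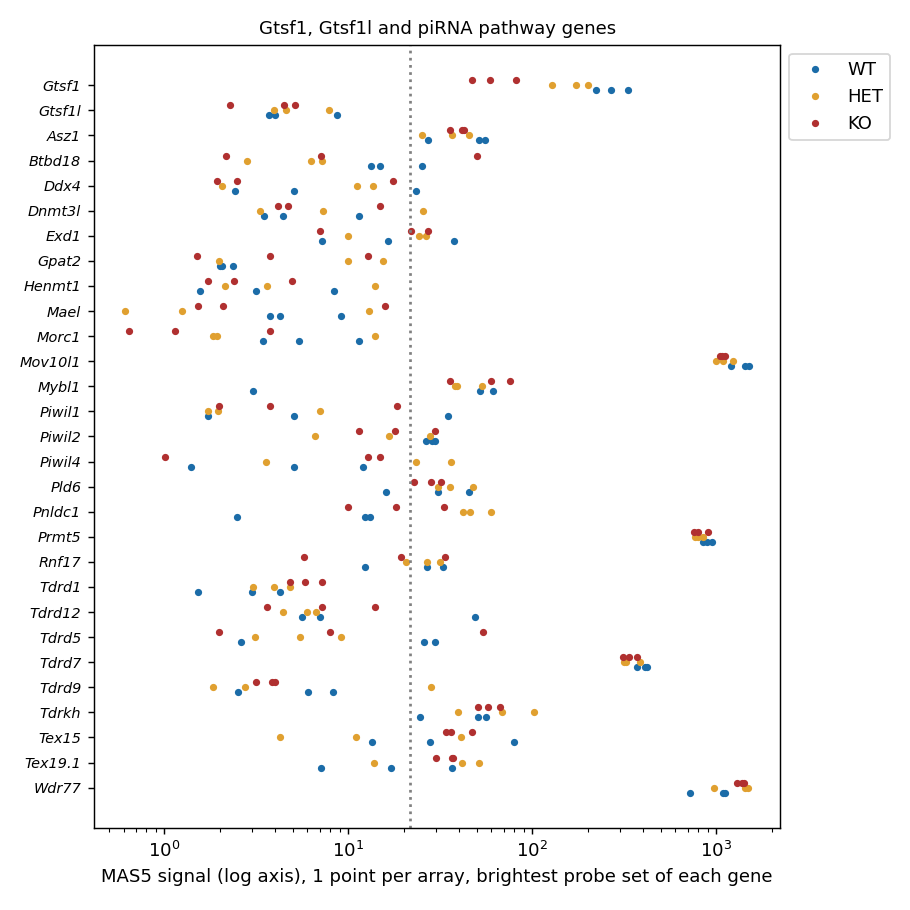
Signal (log axis) of Gtsf1, Gtsf1l and the 27 measured piRNA pathway genes, 1 point per array in the brightest probe set of each gene, with WT, HET and KO offset in colour. The dotted line is a signal of 21.7, the 40th percentile. Gtsf1 shows 3 separate genotypes, and 15 of the 27 pathway genes have a mean under the line. Signals of different probe sets are not comparable as levels.

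Ventricular cardiomyocyte markers lay over the 40th percentile, and most measured germ cell markers under it. All 8 ventricular cardiomyocyte markers were over the 40th percentile, and their summed signal was 187000 to 199000 in WT, 168000 to 189000 in HET and 168000 to 184000 in KO. Such sums weigh the brightest members most and are not comparable between lists. Of all 18193 genes, 13028 lay over the 40th percentile in their brightest probe set. Over all genes, by the brightest probe set, 0.39% were called between KO and WT, 13.7% had an unadjusted p under 0.05, 53.4% were lower in KO by any amount and the median was -0.02. Of the cardiomyocyte markers 7 of 8 were lower in KO than in WT, with a median of -0.15, none called and 2 with an unadjusted p under 0.05, and whether this has a part in the Gtsf1 difference was not tested. Of 12 germ cell markers 10 were on the array and 2, Dnd1 and Dppa3, were over the 40th percentile. Their sum was 210 to 285 in WT, 205 to 241 in HET and 166 to 267 in KO, and none was called (0 with an unadjusted p under 0.05). The summed signal of the gonad somatic markers was 57 to 104 in WT and 78.3 to 95.4 in KO, and that of the 6 macrophage markers 970 to 1150 and 1110 to 1290, with none called in either list (unadjusted p under 0.05 in 0 and 1). None was called among 6 fibroblast, 3 erythroid, 3 smooth muscle and 3 epicardial markers (unadjusted p under 0.05 in 2, 1, 1 and 0). The fibroblast markers had a median of 0.10, with 1 of 6 lower in KO. KO lay above WT without overlap in 3 of them, Col3a1, Pdgfra and Postn, where 9.07% of all genes did. It lay below WT without overlap in 4 cardiomyocyte markers, Myl2, Myl3, Myh7 and Tnni1, where 12% of all genes did. The other marker lists had at most 1 such gene in either direction. What these shifts reflect was not tested. Without HET replicate 1, Tnni1 (-0.23 ± 0.06, limma, adjusted p = 0.0385) and Pdgfra (0.48 ± 0.11, limma, adjusted p = 0.029) were called among these lists. That setting called 1313 of 45037 probe sets, against 134 with all arrays. The 6 endothelial markers had a median of -0.03, with 2 at an unadjusted p under 0.05. Of these, Kdr, a receptor for vascular endothelial growth factor, fell (-0.74 ± 0.13, limma, adjusted p = 0.0363, and -0.25 ± 0.18 with the array partition as a block). Emcn lay the other way (0.21, limma, adjusted p = 0.34), and Cdh5 was at 0.31, Pecam1 at -0.09, Tek at -0.03 and Tie1 at -0.03. The Kdr call was lost without any 1 of the WT or KO arrays, with that block, with a shift to one median, with a pseudocount of 64 and without an intensity trend. In whole ventricle, fewer cells that make Gtsf1 and less Gtsf1 RNA per cell cannot be told apart.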

How the data were processed

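Each of 9 single-colour Affymetrix arrays took 6 µg of total RNA, per the labels. The deposited values are signal intensities that the authors made with MAS5 (no version stated), per the submitters' processing notes, 1 array at a time. Every column had a mean of 200 without its top and bottom 2%, so arrays were scaled only, which leaves background differences that weigh most on dim probe sets. The small number of arrays sets the precision.

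The platform annotation named the probe sets, and RefSeq (GRCm38.p6) gave current symbols by gene ID. Of 45101 probe sets, 64 controls were left out and 34945 name 1 gene. Each was fitted on its own on log2(signal + 16) with limma 3.58.1 in R 4.3.3 (a mean per genotype, eBayes with an intensity trend, two-sided, Benjamini-Hochberg over 45037 probe sets). Lists read the brightest probe set of each of 18193 genes. Besides the members, the rule named Esrrg, the 3 next deepest falls, the 5 most alike and 3 most opposed patterns, called list members or else the 4 smallest p of the piRNA list, the CHHC genes and the neighbours. The members, lists, tests and array partition were chosen with earlier results of these data known. In 5 simulated draws of KO minus WT over 45037 probe sets, 200 were changed, all drawn from those over the 40th percentile. Changes were made on the log2(signal + 16) scale, with independent normal noise and no array partition. The fit found 42.8% of 2-fold and 81.6% of 4-fold changes, with 32 false calls in all. These rates do not cover probe sets under the 40th percentile or the effect of the array partition. Alternatives were quantile normalization, 1 median per array, pseudocounts of 1 and 64, only probe sets over the 40th percentile, and the brightest of these per gene. The others were no trend, array weights, a block by replicate number or by array partition, and each array left out. Plots used matplotlib 3.10.9 (Python 3.11.15).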

Additional observations from a re-analysis of the deposited data

How the results depend on the processing

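The KO minus WT difference of the brighter Gtsf1 probe set kept its direction under all 19 alternatives. It was -1.42 with a pseudocount of 64, -1.50 with the array partition as a block, and -2.07 to -1.75 when each array was left out. HET minus midpoint stayed uncalled under all of them. Gtsf1l also stayed uncalled, at -0.16 to 0.0068 when each array was left out, with the reversal to 0.0068 without WT replicate 3. It has no value under the filters at the 40th percentile. No neighbour was called under any alternative. The piRNA count was 0 to 2 when each array was left out, with 2 without HET replicate 1, and 0 otherwise. The number of probe sets called between KO and WT was 134. It was 81 with quantile normalization, 11 with a shift to 1 median, and 283 and 21 with pseudocounts of 1 and 64. With only the brightest probe set per gene over the 40th percentile, it was 211 of 13028. It was 0 without an intensity trend, 515 with array weights and 1 with the array partition as a block. When each array was left out, it was 12 to 1313. The cause of these changes was not tested. Of the 134 calls, 83 were higher in KO (61.9%). With quantile normalization 48 of 81 were (59.3%), and with a shift to one median 4 of 11 (36.4%), a share of few calls. With the replicate number as a block, 146 were called and Gtsf1 gave -1.90; same-numbered arrays correlated at -0.04 to 0.04 in their deviations from the genotype means and 3 of 9 arrays correlated best with their own number, so the numbers were not taken as pairs. Signals near the background limit the dimmer Gtsf1 probe set and Gtsf1l.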
